A study of Mus musculus with 9 samples.

Results

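The D cyclins, their partner kinases and the inhibitors of those kinases were followed in HC11 cells, a mouse mammary epithelial line derived from a BALB/c mammary gland, and in 2 *Vangl2*-edited lines made from it. The 10 genes were taken by name from the 55228 genes of the count table: the D cyclins *Ccnd1*, *Ccnd2* and *Ccnd3*, the kinases *Cdk4* and *Cdk6*, the Cip/Kip inhibitors *Cdkn1a*, *Cdkn1b* and *Cdkn1c*, and the INK4 inhibitors *Cdkn2a* and *Cdkn2b*. RNA-seq was run on 9 cultures, 3 each of parental cells (WT) and of the lines KD1 and KD2. Each edited line was cut by CRISPR/Cas9 with its own *Vangl2* guide and a repair template carrying stop codons, and each was grown from a single colony, so that a difference from WT belongs to 1 clone. No cloned, unedited line was analysed here. All cultures were undifferentiated and were kept in RPMI-1640 medium, with FBS at 10%, EGF at 10 ng/mL and insulin at 5 µg/mL, and harvested near confluence. The study treats *Ccnd1* as a target of the transcription factor STAT5A and asks whether loss of *Vangl2* raises it.

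D cyclins are made in response to growth signals and bind CDK4 or CDK6. The active complexes phosphorylate the retinoblastoma protein and its relatives, which releases E2F factors to drive the genes of S phase. INK4 proteins bind CDK4 and CDK6 and keep them from cyclin D, whereas Cip/Kip proteins inhibit cyclin E and cyclin A complexes with CDK2 and can also help cyclin D complexes assemble. In the mammary gland, cyclin D1 is known for its part in the growth of the lobules during pregnancy.

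The depth was between 19231428 and 28360592 counts per culture, and 15253 genes passed the filter on low counts. *Vangl2* had 48 to 118 counts in every culture. It was lower in KD1 than in WT (log2 fold change -0.63, adjusted p = 0.0058) and was not shown to differ in KD2 (0.05, adjusted p = 0.81). Transcript abundance alone therefore does not check the edit in KD2. By immunoblot, the study reports almost no VANGL2 protein in KD1 and strongly reduced protein in KD2. KD2 replicate 3 stood apart from the other KD2 cultures, and WT replicate 1 from the other WT cultures, in a comparison of their counts. Levels are given as counts scaled to TMM-adjusted library size (CPM). Of the 8 epithelial markers, 7 were above 1 CPM in WT and *Krt19* was at 0 everywhere. Their summed level ran from 4842 to 5411 CPM in WT, from 6091 to 6240 in KD1 and from 2890 to 3587 in KD2. These markers did not all move together. In KD1, *Cldn4* was at a mean of 633 CPM against 22 in WT, and *Krt18*, *Epcam* and *Cdh1* rose. There *Krt8*, *Krt5* and *Krt14* were not shown to differ. In KD2, *Krt5* (1088 against 2117), *Krt14* (819 against 1527), *Epcam* and *Cdh1* fell. *Krt8* rose in KD2 (268 against 158), where *Krt18* and *Cldn4* were not shown to differ. The 7 fibroblast markers summed to between 14 and 19.8 in WT, 8.07 and 10.1 in KD1, and 87.7 and 97.2 in KD2, where *Pdgfrb* supplied most of the sum and *Dcn*, *Lum* and *Thy1* were at or near 0. The 6 immune markers (at most 8.38, with *Adgre1* at 0) and the 4 endothelial markers (at most 5.5) were low in all lines. The part of these marker differences in the results below was not tested, and in bulk RNA fewer cells of a type and less RNA per cell cannot be told apart.

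Promoters are shown for 4 transcription starts of genes whose levels turn on the comparisons that follow: the kinase that was lower in both edited lines, the inhibitor that rose most in KD1, and the neighbouring INK4 genes *Cdkn2a* and *Cdkn2b*. RefSeq promoters on GRCm38.p6 matched 7 of the 10 genes, with no entry for *Ccnd1*, *Ccnd2* and *Cdkn1c*. Each line gives the 250 bases before a start, 5′ to 3′ on the gene's own strand, with capitals marking the E-box CACGTG or the GC box GGGCGG on either strand. They come from chr10:127063285-127063534 (plus strand), chr17:29093519-29093768 (plus strand), chr4:89282193-89282442 (minus strand, the p16Ink4a start) and chr4:89311033-89311282 (minus strand).
Cdk4: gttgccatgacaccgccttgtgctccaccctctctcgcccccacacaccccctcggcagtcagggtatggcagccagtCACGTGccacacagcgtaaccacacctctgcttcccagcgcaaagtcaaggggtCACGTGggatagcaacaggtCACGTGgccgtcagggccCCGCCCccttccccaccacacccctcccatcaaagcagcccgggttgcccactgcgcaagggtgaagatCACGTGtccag
Cdkn1a: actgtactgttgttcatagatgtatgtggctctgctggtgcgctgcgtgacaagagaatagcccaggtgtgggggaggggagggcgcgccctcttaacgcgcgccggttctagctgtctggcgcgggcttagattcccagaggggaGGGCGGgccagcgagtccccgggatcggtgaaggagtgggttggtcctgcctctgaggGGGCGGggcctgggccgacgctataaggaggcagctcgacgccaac
Cdkn2a: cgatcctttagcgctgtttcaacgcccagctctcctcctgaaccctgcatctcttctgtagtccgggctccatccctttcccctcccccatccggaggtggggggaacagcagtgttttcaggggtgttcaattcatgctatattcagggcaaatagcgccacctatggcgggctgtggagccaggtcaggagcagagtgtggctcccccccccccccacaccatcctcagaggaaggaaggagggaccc
Cdkn2b: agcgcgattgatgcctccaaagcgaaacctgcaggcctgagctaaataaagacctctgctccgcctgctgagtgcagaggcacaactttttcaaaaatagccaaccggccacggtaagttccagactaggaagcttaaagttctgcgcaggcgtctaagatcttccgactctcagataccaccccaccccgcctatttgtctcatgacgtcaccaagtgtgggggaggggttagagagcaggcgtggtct
The *Cdk4* promoter held the E-box 4 times and 1 GC box, the printed *Cdkn1a* promoter held 2 GC boxes, and the p16Ink4a and *Cdkn2b* promoters held none of the motifs searched. The other *Cdkn1a* start in RefSeq (chr17:29090729-29090978) held none of them. *Cdk6* had the E-box once. CACGTG reads the same on both strands and was present in 6.02% of 32851 RefSeq promoter windows of this length, against 32.7% for GGGCGG. The upstream start of *Cdkn2a*, which makes p19Arf, had 2 GC boxes and 1 E2F word, TTTCCCGC. One or more of the E2F words searched (TTTCCCGC, TTTCGCGC, TTTGCCGC and TTTGGCGC, both strands) stood in 1.86% of promoters. The STAT word TTCNNNGAA (7.02% of promoters) and the AP-1 word TGANTCA (6.75%) were in none of the 10 windows found for these genes. None of these letters overlapped those of another motif in the printed sequences.

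*Ccnd1* was the most abundant D cyclin per length in all 3 lines, and it rose in KD1 and fell slightly in KD2. *Ccnd1* (ENSMUSG00000070348, GRCm38 chr7:144929931-144939925, minus strand) stood at 697, 727 and 724 CPM in the WT cultures, at 1546, 1587 and 1501 in KD1 and at 627, 616 and 649 in KD2. All KD1 cultures were above all others, and all KD2 cultures were below all WT cultures. The rise in KD1 was 2.16-fold, a log2 fold change of 1.11 ± 0.0496 (SE, n = 3 cultures per group, adjusted p = 2.2e-10). In KD2 the gene fell by 0.18 on the log2 scale (SE 0.0492, adjusted p = 0.0047). This small decrease lost its call when library size alone was used for scaling, at -0.07 (adjusted p = 0.2). It was -0.11 (adjusted p = 0.049) where at least 10 counts were required in every culture. The first of these scalings moves the median of all genes by 0.11 in this comparison. KD2 was 2.45-fold below KD1 (log2 fold change -1.29 ± 0.0498, adjusted p = 3e-11).

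**Figure D1:**
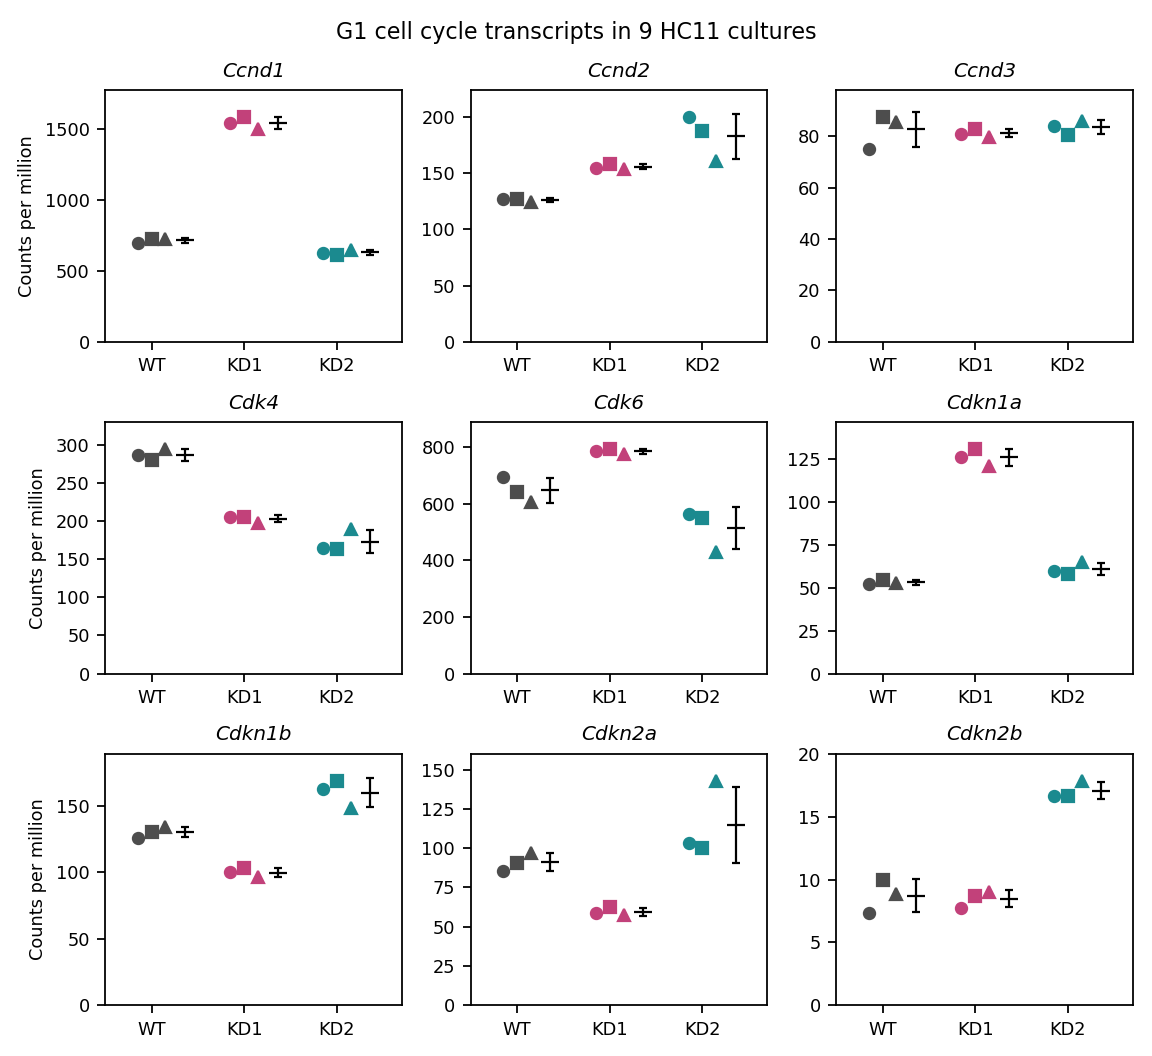
Levels in CPM (vertical axes, from 0) of 9 of the 10 genes in WT, KD1 and KD2. Circles, squares and triangles are replicates 1, 2 and 3, and each dash with a bar is the mean ± SD of 3 cultures. The KD1 cultures lie between 1501 and 1587 for Ccnd1 and between 121 and 131 for Cdkn1a, above every culture of the other lines, whereas Cdkn2b is highest in KD2.

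*Ccnd2*, a second D cyclin, was higher than WT in both edited lines. *Ccnd2* (ENSMUSG00000000184, chr6:127125162-127152193, minus strand) measured 127, 127 and 124 CPM in WT, 155, 158 and 154 in KD1, and 200, 188 and 161 in KD2. No culture of one line overlapped those of another, but KD2 replicate 3 lay close to KD1. The gene rose by a log2 fold change of 0.30 ± 0.0712 in KD1 (adjusted p = 0.0022) and, in KD2, of 0.54 ± 0.0712 (adjusted p = 1.4e-05). The difference between the edited lines was 0.23 ± 0.0706 (adjusted p = 0.0094). Without KD2 replicate 1 it was 0.16 and lost its call (adjusted p = 0.065), and with library size alone it was 0.36.

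*Ccnd3* showed no difference that passed the test in the main fit. *Ccnd3* (ENSMUSG00000034165, chr17:47505051-47599691, plus strand) was at 74.9, 87.4 and 85.6 CPM in WT, 81, 82.8 and 79.7 in KD1, and 84.1, 80.4 and 85.8 in KD2, with overlapping ranges. The log2 fold change was -0.03 in KD1 (95% interval -0.17 to 0.11, adjusted p = 0.75) and 0.01 in KD2 (-0.13 to 0.15, adjusted p = 0.88). KD2 and KD1 differed by 0.04 (-0.10 to 0.18, adjusted p = 0.62), which became 0.17 (adjusted p = 0.038) with library size alone.

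To compare levels between genes, CPM were divided by the length of each gene's exons in kilobases (RPKM). This length joins the exons of all annotated transcripts, 3 for *Ccnd1* (4709 bases) and 21 for *Ccnd3* (8775 bases). It can exceed the length of the RNA present, so order and shares between genes depend on the annotation. The 3 D cyclins together reached 175 ± 4.17 RPKM in WT, 354 ± 9.48 in KD1 and 163 ± 2.63 in KD2 (mean ± SD, n = 3). *Ccnd1* made up 87% ± 0.119 of this sum in WT, 92.7% ± 0.0874 in KD1 and 82.2% ± 1.3 in KD2. The share was 5.76 percentage points higher in KD1 than in WT, and it differed by -4.74 points between KD2 and WT. A two-sided exact permutation test gave p = 0.10 for each, the smallest p that 3 cultures against 3 allow. Scaling of the libraries cannot move such a share, but raw counts in place of counts per length gave 9.27 and -7.12 points.

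*Cdk4* was lower in both edited lines, whereas *Cdk6* rose in KD1 and fell in KD2. *Cdk4* (ENSMUSG00000006728, chr10:127063534-127067920, plus strand), the kinase whose promoter with 4 E-boxes is printed above, measured 287, 280 and 295 CPM in WT. It measured 206, 206 and 198 in KD1 and 165, 163 and 190 in KD2, so that no culture of one line overlapped another line. The log2 fold change was -0.50 ± 0.064 in KD1 (adjusted p = 1.4e-05) and -0.73 ± 0.0644 in KD2 (adjusted p = 2.4e-07), or 1.41-fold and 1.66-fold lower than WT. The further difference of -0.23 ± 0.0642 between KD2 and KD1 (adjusted p = 0.0051) shrank to -0.11 (adjusted p = 0.15) with library size alone.

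*Cdk6* (ENSMUSG00000040274, chr5:3341485-3531008, plus strand), the second kinase for D cyclins, was at 697, 643 and 608 CPM in WT, 787, 795 and 777 in KD1, and 563, 552 and 429 in KD2. The 3 KD1 cultures were the highest and the 3 KD2 cultures the lowest, with KD2 replicate 3 well below the other KD2 cultures. Its log2 fold change was 0.28 ± 0.0875 in KD1 (adjusted p = 0.015), which without WT replicate 3 was 0.25 and lost its call (adjusted p = 0.052). In KD2 the change was -0.33 ± 0.0877 (adjusted p = 0.0039), or -0.19 without KD2 replicate 3. KD2 was below KD1 by -0.61 ± 0.0878 (adjusted p = 2.7e-05).

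Both kinases together summed to 135 ± 2.93 RPKM in WT, 119 ± 2.06 in KD1 and 90 ± 0.967 in KD2. *Cdk4* supplied 65.6% ± 1.89 of this sum in WT, 52.7% ± 0.336 in KD1 and 59.1% ± 5.62 in KD2. The share differed by -12.9 points between KD1 and WT (exact permutation p = 0.10) and by -6.45 points between KD2 and WT (exact permutation p = 0.30), with 0.10 again the smallest p possible. Without KD2 replicate 3 the KD2 difference was -9.7 points (exact permutation p = 0.20, the smallest possible with 2 cultures). Within KD2, replicate 3 had the highest value of *Cdk4* and the lowest of *Cdk6*.

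Among the Cip/Kip inhibitors, *Cdkn1a* changed most in KD1, and *Cdkn1b* moved in opposite directions in the edited lines. *Cdkn1a* (ENSMUSG00000023067, chr17:29090976-29100727, plus strand) encodes p21, a classic target of p53. It was at 52.1, 54.8 and 52.7 CPM in WT, 126, 131 and 121 in KD1, and 59.8, 58.2 and 65.1 in KD2. The KD1 cultures were all far above the others, and the KD2 cultures lay a little above WT without overlap. The rise was 2.37-fold in KD1 (log2 fold change 1.24 ± 0.0624, adjusted p = 7.6e-10). In KD2 it was 0.20 ± 0.063 (adjusted p = 0.014), with 0.31 under library size alone and 0.16 with no call when genes of low counts were kept (adjusted p = 0.091). KD2 differed from KD1 by -1.05 ± 0.0617 (adjusted p = 2.9e-09).

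*Cdkn1b* (ENSMUSG00000003031, chr6:134920401-134925513, plus strand) encodes p27, an inhibitor that typically accumulates in resting cells. It measured 126, 130 and 134 CPM in WT, 100, 103 and 96.4 in KD1, and 163, 169 and 148 in KD2. Every KD1 culture was below WT and every KD2 culture above it. The log2 fold change was -0.38 ± 0.062 in KD1 (adjusted p = 0.00013) and 0.30 ± 0.0615 in KD2 (adjusted p = 0.00061), and the lines differed by 0.68 ± 0.0618 (adjusted p = 2.7e-07).

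*Cdkn1c* (ENSMUSG00000037664, chr7:143458339-143461050, minus strand), the imprinted gene for p57, had 0 counts in 8 cultures and 3 counts in KD2 replicate 3. It did not pass the filter and was not tested. A count of 0 allows up to 3 counts, or 0.0999 to 0.154 CPM depending on the culture. In the 8 cultures at 0, any transcript was therefore below detection at this depth. Of 16 other genes listed from the imprinted region of distal chromosome 7 around *Cdkn1c*, 10 could be tested. *Slc22a18* was higher in both lines (log2 fold changes 2.47 and 2.51, adjusted p = 1.5e-06 and 1e-06), at a mean of 0.47 CPM in WT, 2.66 in KD1 and 2.74 in KD2. *Phlda2* rose in KD1 (1.05, adjusted p = 0.00025) and fell in KD2 (-1.07, adjusted p = 0.00098). *Kcnq1ot1*, a noncoding RNA of this region, rose in KD2 (1.43, adjusted p = 8.2e-05) and was above KD1 there (1.33, adjusted p = 0.00012). *H19* was at 0 counts in the 3 KD1 cultures and at a mean of 2.64 ± 1.03 CPM in WT.

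The make-up of the Cip/Kip pool differed accordingly. Summed, these inhibitors reached 43.5 ± 0.965 RPKM in WT, 57.4 ± 2.13 in KD1 and 52.4 ± 1.31 in KD2. *Cdkn1a* was 34.4% ± 0.813 of the sum in WT, 61.8% ± 0.213 in KD1 and 32.8% ± 2.78 in KD2, so that *Cdkn1a* passed *Cdkn1b* in KD1 but not in WT or KD2.

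**Figure D2:**
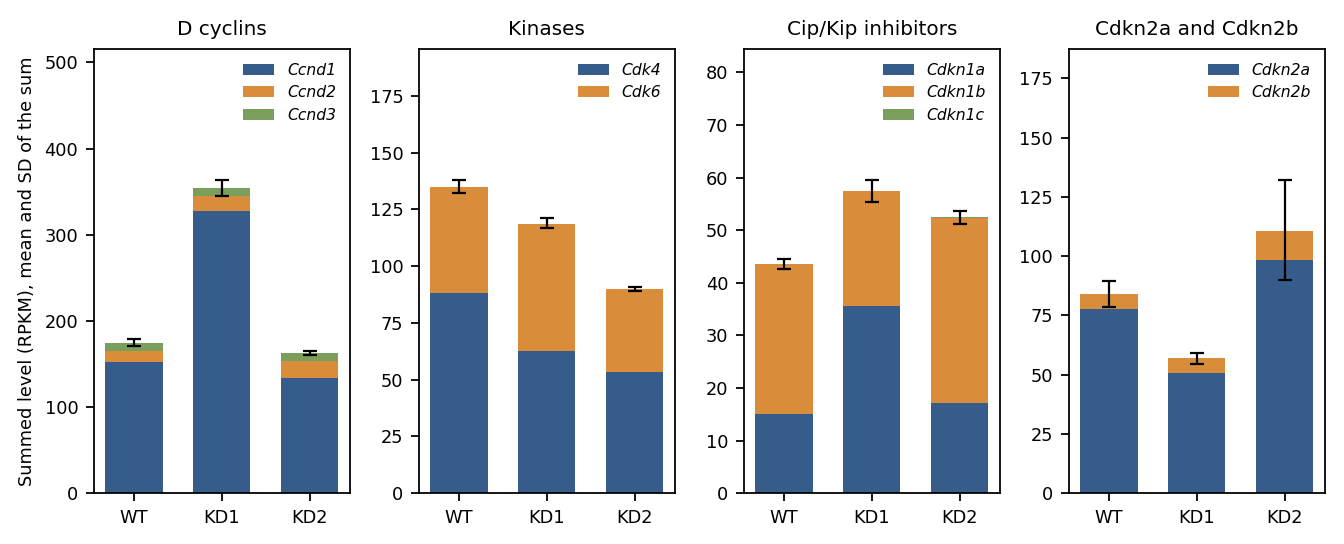
Summed level in RPKM (vertical axes, from 0) of the D cyclins, the kinases, the Cip/Kip inhibitors, and Cdkn2a with Cdkn2b in WT, KD1 and KD2. Colours give each gene's mean part of the bar and error bars the SD of the sum over 3 cultures. D cyclins stand at 354 in KD1 against 175 in WT and 163 in KD2, whereas Cdkn2a with Cdkn2b is lowest in KD1 at 56.9.

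*Cdkn2a* and *Cdkn2b* were both highest in KD2, and *Cdkn2a* was lowest in KD1. *Cdkn2a* (ENSMUSG00000044303, chr4:89274471-89294653, minus strand) encodes p16Ink4a and, from an upstream first exon, p19Arf, an activator of p53. Gene-level counts pool both transcripts. It was at 85.4, 90.7 and 96.9 CPM in WT, 58.8, 62.3 and 57.4 in KD1, and 103, 100 and 143 in KD2. The lines did not overlap, but the gap between WT and KD2 was narrow outside KD2 replicate 3. The log2 fold change was -0.61 ± 0.113 in KD1 (adjusted p = 0.00036). In KD2 it was 0.34 ± 0.111 (adjusted p = 0.015), falling to 0.18 without KD2 replicate 3 (adjusted p = 0.0064) and to 0.29 with its call lost without WT replicate 1 (adjusted p = 0.062). KD2 was above KD1 by 0.95 ± 0.113 (adjusted p = 4.2e-06).

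*Cdkn2b* (ENSMUSG00000073802, chr4:89306299-89311039, minus strand) encodes p15Ink4b, an inhibitor known to respond to TGF-beta. Its level in WT was 7.32, 9.96 and 8.84 CPM, against 7.72, 8.73 and 9.03 in KD1 and 16.7, 16.7 and 17.9 in KD2. The KD1 and WT cultures overlapped, and all KD2 cultures were above both. The difference from WT was -0.05 in KD1 (95% interval -0.29 to 0.20, adjusted p = 0.76). In KD2 the rise was 1.95-fold (log2 fold change 0.97 ± 0.108, adjusted p = 2.8e-06), and KD2 was above KD1 by 1.01 ± 0.107 (adjusted p = 1.3e-06). *Cdkn2a* and *Cdkn2b* together reached 83.9 ± 5.45 RPKM in WT, 56.9 ± 2.2 in KD1 and 111 ± 21.1 in KD2. The sum leaves out the other INK4 genes, *Cdkn2c* and *Cdkn2d*, which were tested with the G1/S machinery. *Cdkn2c* was at 113 ± 8.6 CPM in WT, 108 ± 2.77 in KD1 and 162 ± 12.1 in KD2, and it rose in KD2 (log2 fold change 0.52, adjusted p = 1.8e-05) but was not past the test in KD1 (-0.07, adjusted p = 0.44). *Cdkn2d* was not past it in either line (-0.23 and 0.25, adjusted p = 0.17 and 0.12). These 2 genes were named after their values were seen.

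**Figure D3:**
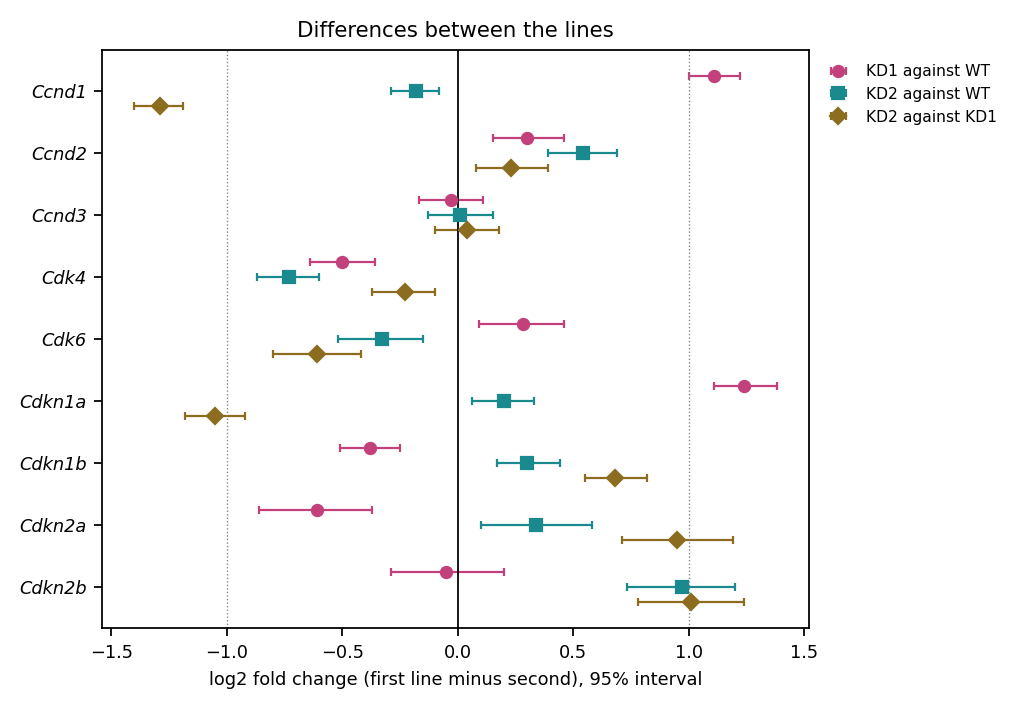
Log2 fold changes (horizontal axis) of the 9 genes tested, for KD1 against WT, KD2 against WT and KD2 against KD1, with 95% intervals; dotted lines mark 2-fold. Ccnd1 and Cdkn1a lie beyond 1 in KD1, at 1.11 and 1.24, whereas their KD2 values are -0.18 and 0.20. The Ccnd3 intervals cross 0 in all 3 comparisons.

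Counted over the genes tested, 7 of 9 passed the test in KD1, beside 56.9% of all 15253 genes, with 4 higher (26.9% of all genes) and 3 lower (30%). In KD2, 8 of 9 passed, beside 67.2% of all genes, with 5 higher (34%) and 3 lower (33.3%). Between KD2 and KD1, 8 of 9 passed, beside 67.8%, with 4 higher in KD2 (34.8%) and 4 lower (33%). These clones differed from WT in most genes tested, and a call at adjusted p below 0.05 does not by itself mark these genes out.

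Past 2-fold, *Ccnd1* and *Cdkn1a* were higher in KD1 and 0 genes were lower, where 9.34% of all genes were called higher and 7.49% lower at that size (16.8% in all). Against WT, 0 of the 9 were past 2-fold in KD2, also at an unadjusted p below 0.05 in edgeR and by DESeq2, while 14.5% of all genes were called higher and 6.71% lower (21.2% in all). *Cdkn2b* lay close to the limit, and 1 of the 9 was past it with library size alone (1.07), with at least 10 counts in every culture (1.04) or without WT replicate 2 (1.10). Between KD2 and KD1, *Cdkn2b* was past 2-fold upward (14.7% of all genes) and *Ccnd1* and *Cdkn1a* downward (8.58%), 3 of 9 beside 23.3% in all. *Cdkn1a* was short of 2-fold with library size alone (-0.92), and *Cdkn2b* was short of it with no filter (0.97), by DESeq2 (0.99), without KD1 replicate 1 (0.94) and without KD2 replicate 3 (0.99). The 0 lower genes of KD1 were 0 as well at an unadjusted p below 0.05 and by DESeq2.

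Both comparisons with WT share the same WT cultures. Cultures did not overlap between WT and KD1 for 7 of the 9 genes (68.9% of all genes), between WT and KD2 for 8 (67.9%) and between the edited lines for 8 (71.6%).

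In RPKM order, WT ran from *Ccnd1* (152) through *Cdk4* (88.4), *Cdkn2a* (77.6), *Cdk6* (46.4), *Cdkn1b* (28.5), *Cdkn1a* (15), *Ccnd2* (13.4) and *Ccnd3* (9.42) to *Cdkn2b* (6.26), and no neighbours in this order overlapped between cultures. In KD1, *Ccnd1* stood at 328 and the next gene, *Cdk4*, at 62.6, followed by *Cdk6* at 56.2 and *Cdkn2a* at 50.8. In KD2, *Ccnd1* at 134 was followed by *Cdkn2a* at 98.4 and *Cdk4* at 53.2. There the cultures overlapped between *Cdk6* (36.8) and *Cdkn1b* (35.2) and between *Ccnd2* (19.4) and *Cdkn1a* (17.2).

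Of 34 further genes of the G1/S machinery tested, 10 were higher, 10 lower and 14 not past the test in KD1 (median log2 fold change 0.00, all genes -0.03). In KD2, 6 were higher, 18 lower and 10 not past it (median -0.25, all genes 0.01). Of all genes, 26.9% were called higher and 30% lower in KD1, and 34% and 33.3% in KD2. *Ccndbp1*, whose product binds D cyclins, rose in both lines (0.58 and 0.66, adjusted p = 9.5e-06 and 1.8e-06). *Fbxo31*, part of a ubiquitin ligase for cyclin D1, was lower in both (-0.77 and -0.58, adjusted p = 1.2e-05 and 0.00013). The activator *E2f2* fell most in KD1, from 74.1 ± 5.05 to 27.8 ± 0.661 CPM (-1.42, adjusted p = 3.4e-10). It was also lower in KD2 (-0.33, adjusted p = 0.00041). In KD2 the largest decreases were in *E2f4* (-1.32, adjusted p = 3.1e-09) and *E2f3* (-1.17, adjusted p = 1.1e-09), while *E2f6*, a repressor, rose (0.57, adjusted p = 2.1e-06). Both *E2f4* and *E2f3* were lower in KD1 as well (-0.64 and -0.16, adjusted p = 4.3e-06 and 0.026). *E2f6* was not past the test there (-0.02, adjusted p = 0.82). The phosphatase gene *Cdc25a*, which activates CDK2, rose in KD1 (0.50, adjusted p = 2.5e-06) and was lower in KD2 than in KD1 (-1.02, adjusted p = 9.6e-10).

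Genes of S phase, many of them E2F targets, were more often called higher than lower in KD1, and more often lower than higher in KD2. In KD1, 16 of 25 were higher and 4 lower (median 0.24), beside 26.9% and 30% of all genes. In KD2, 6 were higher and 13 lower (median -0.16), beside 34% and 33.3% of all genes. KD2 was below KD1 for 17 of the 25 (median -0.38) and above it for 0, with 0 also at an unadjusted p below 0.05 in edgeR and 0 by DESeq2. Of all genes, 33% were called lower and 34.8% higher in that contrast. The origin licensing gene *Cdc6* rose from 40.4 ± 4.58 CPM in WT to 87.3 ± 1.27 in KD1 and 59.8 ± 0.569 in KD2 (1.11 and 0.56, adjusted p = 1.5e-08 and 1.3e-05). *Mcm4*, a subunit of the replicative helicase, rose in KD1 (0.69, adjusted p = 3.3e-07) but was not past the test in KD2 (0.02, adjusted p = 0.76). *Pola1*, the catalytic subunit of DNA polymerase alpha, fell in both lines (-0.24 and -1.14, adjusted p = 0.033 and 9.1e-08). The counts of S phase genes lower in KD1 moved to 2 without WT replicate 1 and to 1 with DESeq2. Without KD2 replicate 3, the genes below KD1 in KD2 numbered 20.

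G2/M genes were balanced, with 9 higher and 8 lower of 25 in KD1 (median 0.05) and 9 higher and 7 lower in KD2 (median 0.07). The shares of all genes called were 26.9% higher and 30% lower in KD1, and 34% and 33.3% in KD2. *Ccnf*, for cyclin F, rose in both lines (0.93 and 0.77, adjusted p = 5.1e-08 and 2.9e-07). *Kif11*, a spindle motor, fell in both lines (-0.54 and -0.38, adjusted p = 4.8e-05 and 0.00075). *Kif20a*, a kinesin of cytokinesis, rose in both (0.31 and 0.91, adjusted p = 0.0013 and 3.8e-08). *Ccnb1*, the main mitotic cyclin, was lower in KD2 (-0.60, adjusted p = 4.8e-07), as was *Mybl2* (-0.64, adjusted p = 1.1e-06), a transcription factor of the late cell cycle.

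**Figure D4:**
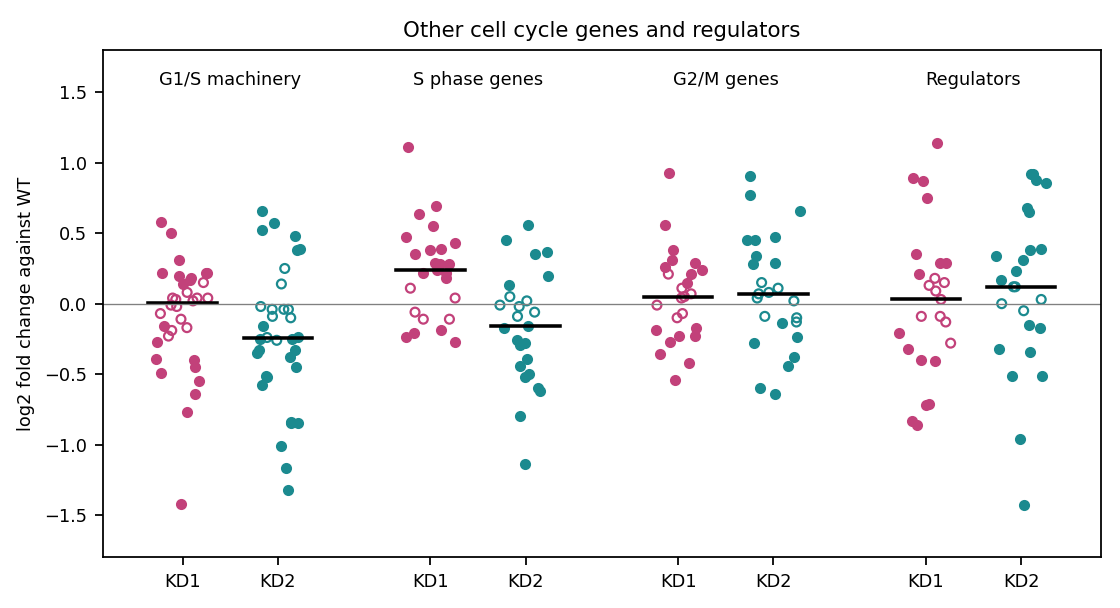
Log2 fold changes against WT (vertical axis) of further genes tested in KD1 and KD2: 34 of the G1/S machinery, 25 S phase and E2F target genes, 25 G2/M genes and 25 regulators. Each point is a gene, filled at adjusted p below 0.05 and open otherwise, spread sideways at random; thick lines are medians. The S phase median is 0.24 in KD1 and -0.16 in KD2.

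Of 25 regulators known to act on these genes, 8 were higher and 8 lower in KD1 (median 0.03), beside 26.9% and 30% of all genes. In KD2, 12 were higher and 8 lower (median 0.12), beside 34% and 33.3%, and 5 were lower without WT replicate 1. *Stat5a* was at 15.8 ± 1.38 CPM in WT, 14.9 ± 0.765 in KD1 and 30 ± 2.82 in KD2. It did not pass the test in KD1 (-0.09 ± 0.093, adjusted p = 0.42) and rose in KD2 (0.92 ± 0.0892, adjusted p = 6.5e-07). In the same cultures *Ccnd1* rose in KD1 and fell in KD2. The study reports more cells staining for STAT5 and for CCND1 in both edited lines, and higher *Stat5a* RNA in both when grown as acini in Matrigel. For *Ccnd1* expression it describes an upward trend in primary organoids whose luminal cells had *Vangl2* knocked down. A link between *Stat5a* and the level of *Ccnd1* was not tested here, and RNA counts do not measure the amount or activity of STAT5A protein. *Stat5b* was not past the test in either line (0.15 and -0.05, adjusted p = 0.052 and 0.45). *Myc*, whose product binds E-boxes, fell in both lines, from 220 ± 14.8 CPM in WT to 124 ± 2.7 in KD1 and 81.8 ± 0.96 in KD2 (-0.83 and -1.43, adjusted p = 3.4e-08 and 2e-10). A link between *Myc* and the levels of *Cdk4* or *Cdk6*, whose promoters held E-boxes, was not tested.

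Further regulators were called in one line or in both. *Smad3*, which carries TGF-beta signals, rose in KD2 (0.92, adjusted p = 6.3e-09) and was above KD1 there by 1.63 (adjusted p = 1.1e-11). *Bmi1*, a Polycomb gene known to repress *Cdkn2a*, fell in KD1 (-0.86, adjusted p = 1.6e-06) and was not past the test in KD2 (0.03, adjusted p = 0.76). In KD1 the early response gene *Egr1* (1.14, adjusted p = 8.3e-05) and the AP-1 gene *Fosl1* (0.89, adjusted p = 3.9e-05) rose most. *Egr1* rose in KD2 as well (0.68, adjusted p = 0.0038), where *Fosl1* (-0.34, adjusted p = 0.042) and *Ets2* fell (-0.96, adjusted p = 5.4e-08).

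The neighbourhood of each gene was described as well. Within 2 Mb of *Ccnd1*, the 25 other genes tested had a median log2 fold change of 0.32 in KD1 and 0.05 in KD2, against chromosome medians of 0.00 and 0.03. The nearest genes tested were *LTO1* (0.40 in KD1, adjusted p = 0.00087) and *Tpcn2* (-0.02, adjusted p = 0.91). *LTO1* overlaps 1100 of the 4709 exon bases of *Ccnd1* on the other strand. *LTO1* stood at 28.6 CPM in WT and 37.8 CPM in KD1, 3.99% and 2.45% of *Ccnd1*, and the part of shared reads in the *Ccnd1* values was not tested. For *Cdk4*, *Tspan31* overlaps 641 of 3249 exon bases on the other strand. At 65.8 CPM in WT it was 22.9% of *Cdk4*, and its changes were 0.07 and -0.06 with neither past the test (adjusted p = 0.36 and 0.44). For *Ccnd3*, *Bysl* overlaps 361 of 8775 exon bases on the other strand. At 104 CPM in WT *Bysl* was 126% of *Ccnd3*, with changes of 0.08 and -0.11 (adjusted p = 0.35 and 0.16). The part of shared reads in the *Cdk4* and *Ccnd3* values was not tested. How strand was treated in counting is not given in the sources used here.

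Around *Cdkn1a* the 48 genes tested had medians of -0.03 in KD1 and 0.08 in KD2. Its neighbours were *Rab44* (2.69 in KD1, adjusted p = 0.0015) and the long noncoding RNA gene *Trp53cor1*, which was not past the test in KD1 (0.07, adjusted p = 0.9) and rose in KD2 (1.52, adjusted p = 0.00073). Around *Cdk6* the medians were 0.25 and -0.09 over 21 genes. Around *Cdk4* they were -0.16 and -0.22 over 85 genes, with chromosome medians of -0.16 and -0.15. In the same order they were 0.06 and -0.06 around *Ccnd2*, and 0.08 and 0.18 around *Ccnd3*. They were -0.04 and 0.22 around *Cdkn1b*, and 0.09 and 0.10 around *Cdkn1c*. Around *Cdkn2a* they were -0.20 and 0.97 over 13 genes, *Cdkn2b* among them, whose own KD2 value was also 0.97. Around *Cdkn2b*, 13 genes gave medians of -0.27 in KD1 and 0.70 in KD2. *Cdkn2a* was among them, and the KD2 median was above the chromosome 4 median of 0.15 in KD2. *Mtap*, on the far side of *Cdkn2a*, was not past the test in either line (0.07 and 0.02, adjusted p = 0.32 and 0.81), and *Gm12609* on the other side rose in KD2 (1.54, adjusted p = 0.0016).

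The genes whose pattern over the 9 cultures was closest to *Ccnd1*, by the root mean square difference of centred log2 levels, were *Ckap4* (0.0478), *Zfand2a* (0.0682) and *Sdc1* (0.0687). Closest to *Cdkn1a* were *Cgn* (0.0615), *Selenos* (0.0619) and *Akr1b3* (0.0636). Among the 10 genes themselves, *Cdkn1a* was the nearest to *Ccnd1*, with a difference of 0.159 and rank 71 of all genes tested.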

How the data were processed

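RNA-seq of 9 HC11 cultures (3 WT, 3 KD1, 3 KD2) was used. Per the study's methods and labels, the authors trimmed paired reads with fastp (average quality under 20 removed), aligned them to GRCm38 with HISAT2 and deposited raw counts per gene from featureCounts over exons. Tool versions, strandedness and the handling of reads with several matches are not given in the sources used here. Reads shared by overlapping genes can therefore be split or lost.

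Counts were analysed with edgeR 4.0.16 (R 4.3.3, limma 3.58.1): filterByExpr on the 3 groups, TMM scaling, and 1 quasi-likelihood fit over all 9 cultures without covariates. P-values were adjusted by Benjamini-Hochberg over 15253 genes, and adjusted p below 0.05 was called. CPM use TMM-scaled library sizes. RPKM divides them by the exon length in GENCODE M21, also on GRCm38, where 53456 of 55228 gene names matched 1 gene. The study names a different GENCODE release for its counts, so exon lengths and overlaps given here may differ from those used in counting. Shares were compared by exact two-sided permutation. The fit was first tested on simulated counts, with the same relative spread for all genes and few genes changed. Most genes were called in these data, so that test does not measure the error rate here. DESeq2 1.42.0 and other filters, scalings, blocks and left-out cultures were tried. The study calls its replicates biological without saying how the cultures were separated, and each edited line is 1 clone, so p-values measure the spread between these cultures. Floors cover counting error only.

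The genes and lists were chosen with earlier results of these data known. Named from each list other than the cell type markers were at most the 2 largest called changes in each direction per comparison. Also named were *Stat5a* and *Stat5b*, the nearest tested neighbours of genes past 2-fold, and the 3 genes most like those past 2-fold against WT. A gene so named may be given for the other comparisons too. One result under this rule is not reported here.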

Additional observations from a re-analysis of the deposited data

Results flagged for a closer look

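Of the 9 genes tested, 8 differed between the edited lines by the direct contrast of KD2 with KD1 in the same fit, which tests the difference of their effects against WT. *Ccnd1* (log2 difference -1.29), *Cdkn1a* (-1.05), *Cdk6* (-0.61) and *Cdk4* (-0.23) were lower in KD2, and *Cdkn2b* (1.01), *Cdkn2a* (0.95), *Cdkn1b* (0.68) and *Ccnd2* (0.23) were higher there. The background of genes called in this contrast was 67.8%. KD2 replicate 3, the culture that stood apart, lay farthest from the other KD2 cultures for each of these 8 genes.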

How the results depend on the processing

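The log2 fold changes of the 9 genes were recomputed under 16 alternatives in 3 comparisons, 432 values in all. Of these, 416 kept direction and side of the threshold, 6 lost the call, 1 gained it and 9 changed sign. The sign changes were all in differences that did not pass the test. For *Ccnd3* in KD1 they were 0.01 under a minimum of 10 counts per culture, 0.01 in a fit of the 6 cultures alone, and between -0.09 and 0.04 with 1 culture left out (0.02 without WT replicate 3). For *Ccnd3* in KD2 they were -0.02 with no filter and, with 1 culture left out, between -0.06 and 0.08, and between KD2 and KD1 -0.00 with no filter. For *Cdkn2b* in KD1 values ran from -0.15 to 0.09 with 1 culture left out (0.03 without KD1 replicate 1). Requiring 10 counts in every culture, which tests fewer genes, lowered the genes past 2-fold to 766 higher and 553 lower in KD1 (1425 and 1143 before), 1173 and 525 in KD2 (2211 and 1024), and 1181 and 733 between the lines (2247 and 1309).

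Replicate numbers did not pair the cultures: deviations of same-numbered cultures had a mean correlation of 0.00116 (from -0.0652 to 0.0789). With the replicate number as a block, 1424 genes were higher and 1136 lower past 2-fold in KD1, *Ccnd1* stayed at 1.11 and no call among the 9 genes changed. The counts of list genes without KD2 replicate 3, without WT replicate 1 and with DESeq2 were added after seeing the data.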
